A study of Homo sapiens with 4 samples.

Results

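The 10 genes described here belong to the insulin-like growth factor (IGF) axis: the ligand IGF2, the receptors IGF1R, IGF2R and INSR, the binding proteins IGFBP2, IGFBP3, IGFBP4 and IGFBP6, and the mRNA-binding proteins IGF2BP2 and IGF2BP3. They were chosen by symbol from the 16878 genes of the expression tables, with their values in this comparison already known. Their differences between the groups are therefore given as a description, with no test. PANC-1 is an established human pancreatic cancer cell line, obtained from the American Type Culture Collection and grown in medium with fetal bovine serum. RNA-seq was done on 4 libraries, 2 labelled Control and 2 labelled siSIRT1, 48 h after transfection. The siSIRT1 cells received small interfering RNA (siRNA) against SIRT1, an NAD-dependent deacetylase of histones and other proteins. The Control cells were transfected with a control that the labels do not describe further, and they name no other treatment or allele in either group. The question was which transcripts depend on SIRT1 in these cells. The labels do not say whether the 2 libraries of a group came from separate cultures, so the spread between them may be technical.

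IGF2 is a secreted growth factor that is abundant in the fetus and is made by many tumors. It signals through IGF1R, a receptor tyrosine kinase, and through the insulin receptor INSR, while IGF2R carries it to the lysosome without signaling. The IGFBP proteins hold secreted IGFs in the extracellular space, where they can block or prolong their action, and the IGF2BP proteins bind IGF2 mRNA and many other transcripts and influence their stability and translation.

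The siRNA that the study lists for SIRT1 is shown first because siRNA against SIRT1 is what names the siSIRT1 group. That the listed sequence was the one used in these libraries was assumed, and the control transfection is not described. The siRNA is written 5′ to 3′ as listed, which is the strand of the mRNA. Its complement was taken as the guide strand, and capitals mark the bases that would pair with bases 2 to 8 of the guide (its seed).
siSIRT1: gugucaugguuCCUUUGCa
All 19 bases occurred once in the canonical SIRT1 transcript, at bases 1149 to 1167 of 4107, and SIRT1 was the 1 gene of the tables whose canonical transcript held them. The heptamer in capitals, CCTTTGC in DNA letters, occurred in the 3′ UTR of 1866 of 11930 tested genes with an annotated 3′ UTR (15.6%). Among the 10 IGF axis genes it occurred only in the 3′ UTR of IGF1R, at 2 places, and outside the 10 the 3′ UTR of IGF2BP1 also held it at 2 places. The 3′ UTR of IGF1R is the longest of the 10, at 7088 bases, against a median of 1305 over the tested genes. IGF1R was higher in siSIRT1. The 3′ UTRs of IGF2, IGFBP2, IGFBP4, IGF2BP2 and IGF2BP3, which were lower, held no match, nor did those of IGFBP3 and IGFBP6, which were higher. The part of seed matches in these differences was not tested.

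SIRT1 itself checked the labels. It measured 10.46 and 10.25 FPKM (fragments scaled by transcript length and by the mapped fragments of the library) in Control, against 1.8 and 2.05 FPKM in siSIRT1, so that both siSIRT1 libraries were far below both Control libraries. The level left was 18.6% of the Control mean, which is -1.96 as a log2 fold change, with 0.11 as its standard error (SE) and 1.33e-05 as its adjusted p by limma with Benjamini-Hochberg adjustment. All log2 differences are on the log2(FPKM + 1) scale, as siSIRT1 minus Control, a scale that makes the changes of low genes look smaller than they are. The depth, estimated from the smallest steps in the values, was 8580000 and 8960000 fragments in Control and 8510000 and 8870000 in siSIRT1. The fragment numbers behind single genes are derived from it and are approximate. Across all genes, 4521 of 12191 genes tested passed an adjusted p of 0.05, of which 2930 were higher and 1591 lower in siSIRT1. The split was 2279 higher and 1996 lower after quantile normalization, and 2043 higher and 2030 lower after median-of-ratios scaling. Of the epithelial markers, KRT8 and KRT18 measured 1484 FPKM or more in every library, and KRT19 312.82 to 393.94 FPKM. EPCAM measured 5.34 to 11.21 FPKM. KRT7 was low, at 2.89 and 4.04 FPKM in Control, against 3.19 and 3.09 FPKM in siSIRT1, with overlapping groups. No acinar or endothelial marker in the tables reached 1 FPKM, and the 3 islet markers were not analysed here. Of the leukocyte markers in the tables, CD14, a receptor of monocytes, stood near the level of EPCAM, at 5.11 and 5.49 FPKM in Control, against 4.45 and 3.17 FPKM in siSIRT1. PTPRC, which marks all leukocytes, lay between 0.97 and 1.29 FPKM with overlapping groups. The leukocyte markers in the tables summed to between 6.32 and 6.71 FPKM in Control, against 4.46 to 5.42 FPKM in siSIRT1, and their part in the results was not tested. Of the 4 fibroblast markers in the tables, COL1A2, LUM and DCN were at 0.1 FPKM or less, whereas COL3A1 went from 4.08 and 4.04 FPKM to 18.86 and 19.35 FPKM, and its part in the results was not tested. In these bulk samples, fewer cells of a type and less RNA per cell cannot be told apart.

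Of the 10 genes, 9 had a mean of at least 1 FPKM and entered the fit across all genes, and INSR did not. In the fit, 8 of the 9 passed the threshold, against 37.1% of all genes tested. IGF1R, IGFBP3 and IGFBP6 were the 3 on the higher side, where 24.0% of all genes lay, and IGF2, IGFBP2, IGFBP4, IGF2BP2 and IGF2BP3 were the 5 on the lower side, where 13.1% of all genes lay. The groups did not overlap for any of the 9, compared with 69.0% of genes tested. These counts follow from how the genes were picked and carry no further reading. The median log2 difference was -0.29 over the 9 genes and 0.07 over all genes tested. Leaving out 1 library kept the count on the higher side at 3 and moved the count on the lower side between 3 and 6, the lowest without Control replicate 1 and the highest without siSIRT1 replicate 2.

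**Figure D1:**
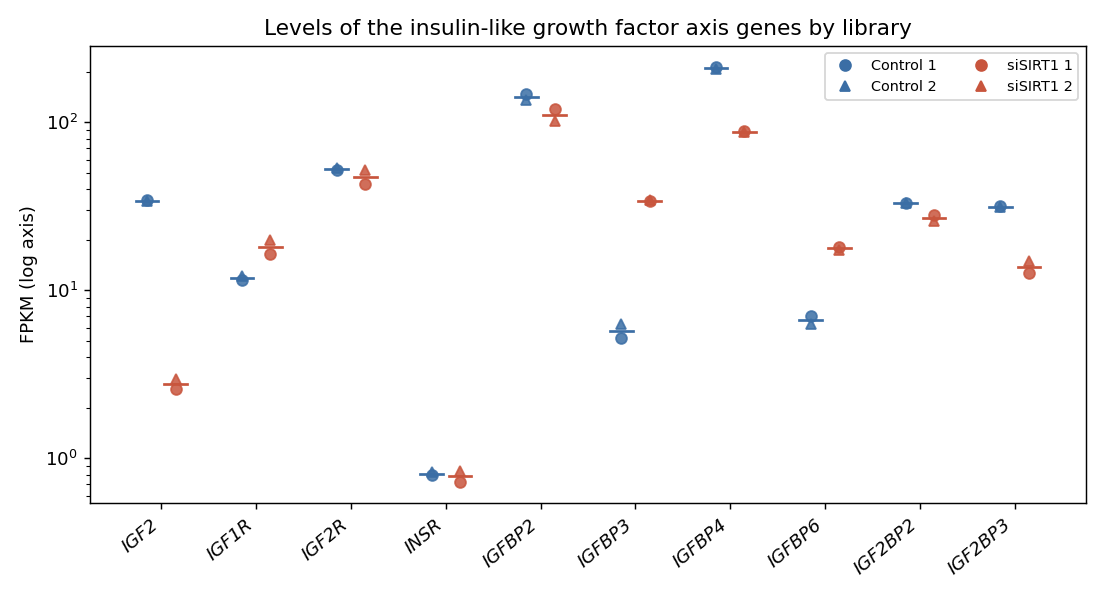
FPKM of the 10 IGF axis genes in each of the 4 libraries on a log axis, with Control in blue, siSIRT1 in red, circles and triangles for replicates 1 and 2, and a bar at each group mean. IGF2 sits at 33.88 or more in Control and at 2.96 or less in siSIRT1, IGFBP3 moves the other way from 6.31 or less to 33.81 or more, and INSR stays below 1 in every library.

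The ligand showed the largest difference of the 10 genes. IGF2 (Entrez gene 3481, chromosome 11) measured 34.45 and 33.88 FPKM in Control, against 2.57 and 2.96 FPKM in siSIRT1, with no overlap between the groups. Group means were 34.2 ± 0.403 FPKM and 2.76 ± 0.276 FPKM (SD, n = 2), so that siSIRT1 cells held 8.09% of the Control level, 12.4-fold lower. The log2 difference was -3.23 with an SE of 0.09, and it ran from -3.58 to -3.15 over all alternative settings. IGF2 drew about 1632 and 1676 fragments in the Control libraries, and 121 and 145 in those of siSIRT1. In Control, IGF2 lay above 87.5% of the genes in the tables. The readthrough transcript INS-IGF2 and the antisense gene IGF2-AS overlap IGF2 and were not analysed here, and since the use of strand in the counting is not stated, reads from them cannot be told apart from those of IGF2. IGF1, the other ligand of the family, measured between 0.45 and 0.7 FPKM in all 4 libraries, with overlapping groups, so IGF2 was the more abundant IGF transcript in siSIRT1 cells as well.

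The 3 receptors differed little next to the ligand. IGF1R (Entrez gene 3480, chromosome 15) measured 11.48 and 12.22 FPKM in Control, against 16.42 and 19.94 FPKM in siSIRT1. Both siSIRT1 libraries lay above both Control libraries, but they also lay farther apart from each other than the Control libraries did. Group means were 11.9 ± 0.523 and 18.2 ± 2.49 FPKM (SD, n = 2), 1.53-fold higher, with a log2 difference of 0.57 and an SE of 0.10.

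IGF2R (Entrez gene 3482, chromosome 6), the scavenger receptor that also sorts lysosomal enzymes by their mannose 6-phosphate tag, was the most abundant of the receptors. It measured 51.83 and 53.66 FPKM in Control, against 43.01 and 51.77 FPKM in siSIRT1, so the higher siSIRT1 library and the lower Control library were nearly level. The log2 difference was -0.16 with an SE of 0.09, it was the 1 gene of the 9 that missed the threshold, and the value ran from -0.29 without siSIRT1 replicate 2, where it passed, to -0.03. INSR (Entrez gene 3643, chromosome 19) measured 0.79 and 0.83 FPKM in Control, against 0.72 and 0.84 FPKM in siSIRT1, with overlapping groups. Its 58 to 70 fragments per library leave a modest difference undetectable at this depth. INSRR, a receptor of the same family that binds no known IGF, was at 0.08 FPKM or less in all libraries.

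Set against each other, the levels of ligand and receptor changed order. There was 3 and 2.77 times as much IGF2 as IGF1R by FPKM in the Control libraries, and 0.157 and 0.148 times as much in siSIRT1. The ratio of IGF2 to IGF2R was 0.665 and 0.631 in Control, against 0.0598 and 0.0572 in siSIRT1. IGF1R exceeded INSR by FPKM in every library, 14.5- and 14.7-fold in Control and 22.8- and 23.7-fold in siSIRT1. Each of these ratios differed more between the groups than between the libraries of a group.

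Among the binding proteins, IGFBP4 and IGFBP2 were the abundant ones and were lower in siSIRT1, while IGFBP3 and IGFBP6 were weakly expressed in Control and were higher in siSIRT1. IGFBP4 (Entrez gene 3487, chromosome 17), which blocks IGF action until a protease cuts it, measured 214.02 and 208.64 FPKM in Control, against 88.53 and 87.06 FPKM in siSIRT1. The groups lay far apart, and the libraries within each group were close. Group means were 211 ± 3.8 and 87.8 ± 1.04 FPKM (SD, n = 2), 2.41-fold lower, with a log2 difference of -1.26 and an SE of 0.06. IGFBP4 was the most abundant of the 10 genes in Control, above 98.5% of the genes in the tables.

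IGFBP2 (Entrez gene 3485, chromosome 2), a binding protein with a preference for IGF2, measured 147.4 and 135.63 FPKM in Control, against 120.3 and 102.05 FPKM in siSIRT1. The groups did not overlap, but the distance between them was close to the distance within each. Group means were 142 ± 8.32 and 111 ± 12.9 FPKM (SD, n = 2), 1.27-fold lower, and the log2 difference of -0.35 (SE 0.08) missed the threshold without Control replicate 1 and without a filter on low values. Without that library the difference was -0.29.

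IGFBP3 (Entrez gene 3486, chromosome 7), the main IGF carrier of the blood, measured 5.21 and 6.31 FPKM in Control, against 33.81 and 34.46 FPKM in siSIRT1. The siSIRT1 libraries were nearly equal and far above both Control libraries. Group means were 5.76 ± 0.778 and 34.1 ± 0.46 FPKM (SD, n = 2), 5.93-fold higher, with a log2 difference of 2.38 and an SE of 0.10. Its Control values rest on about 114 and 144 fragments, its siSIRT1 values on 735 and 780.

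IGFBP6 (Entrez gene 3489, chromosome 12), which binds IGF2 far more tightly than IGF1, measured 7.01 and 6.32 FPKM in Control, against 18.11 and 17.47 FPKM in siSIRT1, again with no overlap. Group means were 6.67 ± 0.488 and 17.8 ± 0.453 FPKM (SD, n = 2), 2.67-fold higher, with a log2 difference of 1.29 and an SE of 0.09. Its transcript is short, and the values rest on about 53 and 50 fragments in Control and 137 in each siSIRT1 library.

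**Figure D2:**
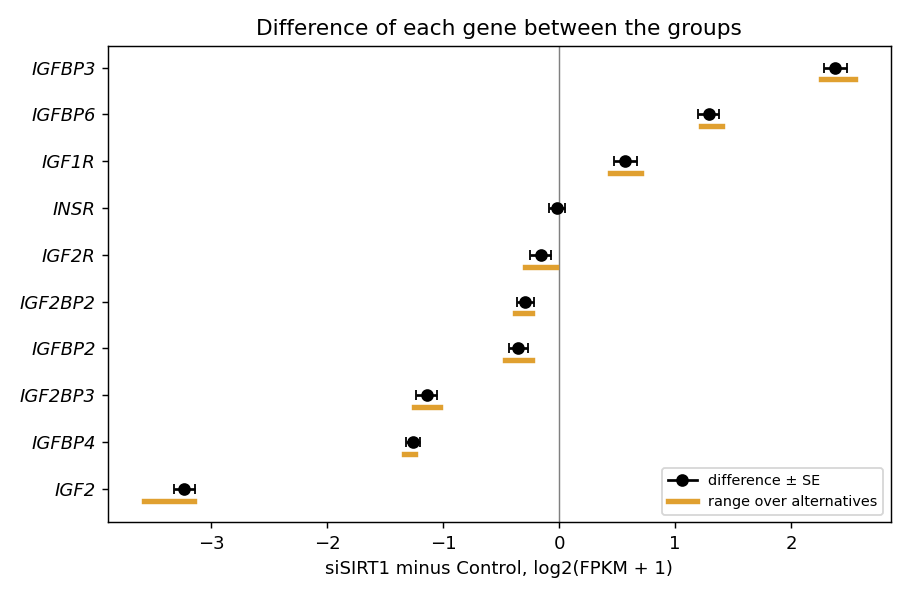
Difference between the groups for each of the 10 genes as siSIRT1 minus Control in log2(FPKM + 1), with points and whiskers for the difference and its SE and orange bars for its range over the alternative settings (none for INSR). IGFBP3, IGFBP6 and IGF1R lie to the right of 0, IGF2, IGFBP4 and IGF2BP3 lie farthest to the left, and no orange bar crosses 0.

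The upstream sequences of IGFBP4, IGFBP3 and IGFBP6 are shown because these 3 binding proteins differed most, in opposite directions. RefSeq promoter entries on GRCh38.p14 matched 9 of the 10 genes by symbol, IGF2 being the exception. Each run below holds the 250 bases before the annotated start, 5′ to 3′ on the strand of the gene, at chr17:40443200-40443449 (plus strand) for IGFBP4, chr7:45921273-45921522 (minus strand) for IGFBP3 and chr12:53097417-53097666 (plus strand) for IGFBP6. Capitals mark the motifs searched on both strands: the GC box GGGCGG, which reads as CCGCCC where it lies on the other strand, the TATA box TATAAA and the forkhead core GTAAACA.
IGFBP4: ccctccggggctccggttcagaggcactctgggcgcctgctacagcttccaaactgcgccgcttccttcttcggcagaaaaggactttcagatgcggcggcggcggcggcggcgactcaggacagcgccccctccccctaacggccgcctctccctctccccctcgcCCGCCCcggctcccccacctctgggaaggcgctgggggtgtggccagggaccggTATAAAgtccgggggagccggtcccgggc
IGFBP3: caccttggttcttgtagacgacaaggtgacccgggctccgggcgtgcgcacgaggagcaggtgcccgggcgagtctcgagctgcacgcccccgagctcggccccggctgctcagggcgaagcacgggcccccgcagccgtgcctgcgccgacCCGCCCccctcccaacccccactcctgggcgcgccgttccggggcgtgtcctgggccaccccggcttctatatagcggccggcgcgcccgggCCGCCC
IGFBP6: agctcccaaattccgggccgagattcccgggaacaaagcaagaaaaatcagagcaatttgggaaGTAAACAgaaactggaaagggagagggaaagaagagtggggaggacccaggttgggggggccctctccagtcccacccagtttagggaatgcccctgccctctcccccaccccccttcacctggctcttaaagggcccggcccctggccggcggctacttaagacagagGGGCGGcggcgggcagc
The GC box occurred at 1 place in IGFBP4, 2 in IGFBP3 and 1 in IGFBP6, and in 42.6% of all 35116 upstream windows of that length. TATAAA occurred in IGFBP4, starting at base -29 from the annotated start, and in 10.7% of all windows. GTAAACA occurred once in IGFBP6 and in 2.98% of all windows, and no 2 of the matches shared bases. The GC content was 71.6% in IGFBP4, 76.0% in IGFBP3 and 61.2% in IGFBP6, with 24, 32 and 9 CpG dinucleotides, against medians of 58% and 11 over all windows. The gene that was lower in siSIRT1 thus lay between the 2 that were higher in GC content and in CpG number. A match describes letters only and is no evidence that a factor binds there.

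The makeup of the IGFBP transcripts changed along with their total. Summed over IGFBP1 to IGFBP6, the signal was 374 and 357 FPKM in Control, against 261 and 241 FPKM in siSIRT1, 68.7% of the Control mean. IGFBP4 held 57.3% and 58.4% of that sum in Control and 33.9% and 36.1% in siSIRT1. IGFBP2 held 39.4% and 38% in Control and 46.1% and 42.3% in siSIRT1, so that by FPKM it was the larger of the pair only in siSIRT1. By estimated fragments, which are not divided by length, IGFBP4 stayed the larger in siSIRT1, at 42.6% against 34% for IGFBP2. IGFBP3 went from 1.39% and 1.77% to 13% and 14.3%, and IGFBP6 from 1.88% and 1.77% to 6.94% and 7.25%. By estimated fragments the mean share of IGFBP6 was 0.887% in Control and 3.57% in siSIRT1. The libraries of the groups did not overlap in any of these 4 shares. IGFBP1 and IGFBP5 were at 0.21 FPKM or less in every library and made up almost none of the sum. For each unit of IGFBP4 there were 0.0243 and 0.0302 units of IGFBP3 in Control and 0.382 and 0.396 in siSIRT1.

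**Figure D3:**
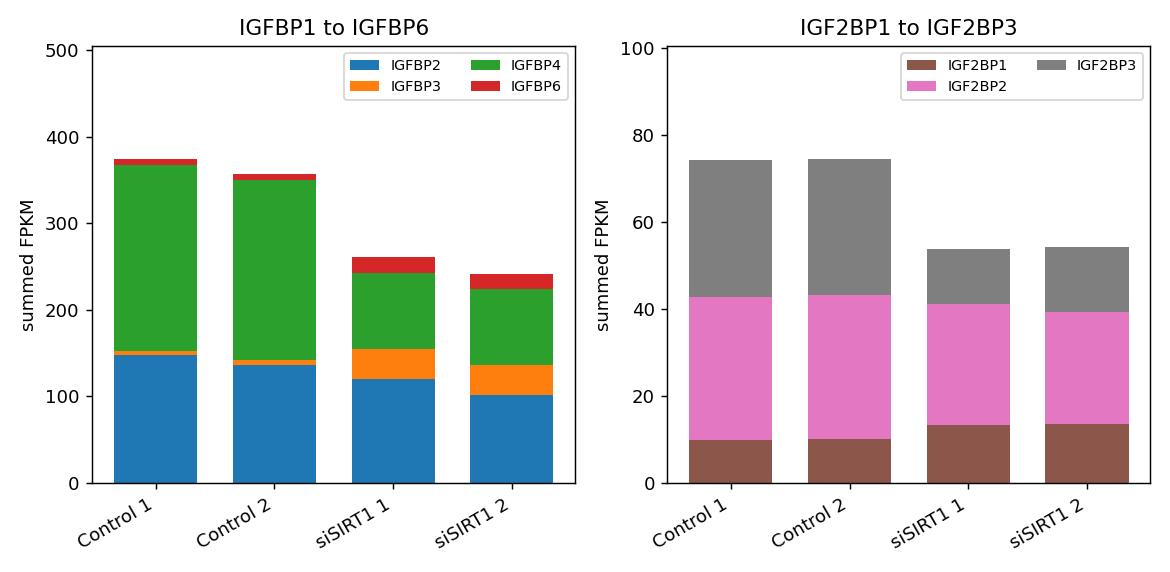
Summed FPKM of IGFBP1 to IGFBP6 (left) and of IGF2BP1 to IGF2BP3 (right) in each library, stacked by gene from 0, with IGFBP1 and IGFBP5 too low to be drawn. The IGFBP sum is 357 or more in Control and 261 or less in siSIRT1 with a larger IGFBP3 part, and the IGF2BP sum goes from 74.3 and 74.5 to 53.8 and 54.3.

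The mRNA-binding proteins differed among themselves. IGF2BP3 (Entrez gene 10643, chromosome 7), an oncofetal RNA-binding protein, measured 31.56 and 31.3 FPKM in Control, against 12.64 and 14.86 FPKM in siSIRT1. The siSIRT1 libraries lay far below both Control libraries, and the Control libraries were nearly equal. Group means were 31.4 ± 0.184 and 13.8 ± 1.57 FPKM (SD, n = 2), 2.29-fold lower, with a log2 difference of -1.14 and an SE of 0.09.

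IGF2BP2 (Entrez gene 10644, chromosome 3), the family member also found in many adult tissues, measured 32.9 and 33.07 FPKM in Control, against 27.89 and 25.91 FPKM in siSIRT1. The groups did not overlap, and the distance was much smaller than for IGF2BP3. The log2 difference was -0.29 with an SE of 0.07, and it missed the threshold without Control replicate 1 and without Control replicate 2, with differences of -0.29 and -0.28. The 2 genes were near equal in Control, with IGF2BP2 at 1.04 and 1.06 times IGF2BP3, and unequal in siSIRT1, at 2.21 and 1.74 times. IGF2BP1, the remaining member of the family, was not among the 10 genes and rose from 9.83 and 10.1 FPKM to 13.27 and 13.53 FPKM (log2 fold change 0.39, adjusted p 0.0072 by limma). That call was lost without Control replicate 1, at an adjusted p of 0.0648. The share of IGF2BP1 in the sum of the 3 was 13.2% and 13.6% in Control, against 24.7% and 24.9% in siSIRT1, while the share of IGF2BP3 went from 42.5% and 42% to 23.5% and 27.4%.

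Ordered by FPKM, which is per length and can be set side by side between genes, the Control cells held IGFBP4, IGFBP2, IGF2R, IGF2, IGF2BP2, IGF2BP3, IGF1R, IGFBP6, IGFBP3 and INSR from high to low. No neighbours in that order overlapped in their 2 libraries. The mean of IGF2 was only 1.04 times that of IGF2BP2, and the mean of IGF2BP2 1.05 times that of IGF2BP3. In siSIRT1 the order was IGFBP2, IGFBP4, IGF2R, IGFBP3, IGF2BP2, IGF1R, IGFBP6, IGF2BP3, IGF2 and INSR. There, IGF1R and IGFBP6 overlapped, and their means differed by a ratio of 1.02. IGF2 moved from rank 4 to rank 9 of the 10 genes and IGFBP3 from rank 9 to rank 4.

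The genes with the nearest profiles were sought among all tested genes, by the root mean square (RMS) distance of centered log2(FPKM + 1) values over the 4 libraries. Nearest to IGF2 were PPP1R1B, a phosphatase inhibitor, at 0.089, HOTS, which lies opposite the H19 gene next to IGF2, at 0.185, and SPARC, a matrix glycoprotein, at 0.252. HOTS measured 50.94 and 51.13 FPKM in Control, against 6.21 and 5.73 FPKM in siSIRT1, and reads from H19 and from HOTS cannot be told apart without strand. H19 was not analysed here. Nearest to IGFBP4 were ITGA3, an integrin chain, at 0.013, OPLAH, an enzyme of glutathione turnover, at 0.014, and GDF15, a secreted stress cytokine, at 0.021. With 4 libraries in 2 groups, any genes with a like difference and a small spread come out near each other.

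The rest of the axis was described from lists of companion genes, 98 of which were in the tables and 80 tested. The lists were drawn from textbook knowledge with earlier results in view. Of the 80 genes, 21 rose, 14 fell and 45 did not pass, beside the 37.1% of all genes that passed, and their median log2 fold change was 0.08 against 0.07 over all genes. Without Control replicate 1 the number passing was 22 in place of 35.

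On the list of IGF family genes outside the 10, 4 genes were expressed enough to be tested, and all 4 rose. Their log2 fold changes had 0.67 as the median. The share of all genes tested that were higher was 24.0%, and 13.1% were lower. IGFBP7, a secreted protein related to the IGFBPs that binds IGFs weakly, rose from 21.72 and 20.02 FPKM to 62.54 and 57.01 FPKM, a log2 fold change of 1.47 (SE 0.08, adjusted p 6.51e-06 by limma). IGFBPL1, a related secreted protein, rose from 5.08 and 5.3 FPKM to 9.31 and 9.61 FPKM (log2 fold change 0.76, adjusted p 0.000667). IGFLR1, a receptor-like membrane protein, rose from 2.86 and 2.76 FPKM to 4.64 and 4.65 FPKM (log2 fold change 0.57, adjusted p 0.00553). IGF2BP1 was the other gene of the 4. The remaining genes of this list in the tables had means below 1 FPKM and were not tested. Among these, IGFALS, the serum partner of IGFBP3, measured 0.38 and 0.16 FPKM in Control, against 0 and 0.1 FPKM in siSIRT1. IGFBP1 and INSRR were at 0.21 FPKM or less in every library. By estimated fragments, IGFALS had 7 and 3 in Control, against 0 and 2 in siSIRT1. IGFBP1 had 2 and 3 in Control, against 1 and 0, and INSRR had 1 and 4, against 0 and 0. The groups did not overlap for these genes, nor for 69.0% of genes tested, and so few fragments give no direction. IGF1 had overlapping groups, and IGFBP5 was level at 0.02 FPKM. INS was not analysed here.

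The list of binding protein proteases and their regulators held 13 genes, including proprotein convertases such as FURIN, which mature precursors. Of the 13, 6 were expressed enough to be tested, of which 1 rose, 4 fell and 1 did not pass. Over all genes, 24.0% were higher and 13.1% lower. The median log2 fold change of the 6 was -0.61. The other 7 had means below 1 FPKM. STC2, a stanniocalcin that inhibits the IGFBP4 protease PAPPA, fell from 120.86 and 119.31 FPKM to 65.64 and 64.73 FPKM (log2 fold change -0.87, adjusted p 2.04e-05 by limma). PAPPA itself measured 0.01 and 0.07 FPKM in Control, against 0.15 and 0.24 FPKM in siSIRT1, too low to be tested. The secreted serine protease HTRA1 fell with a log2 fold change of -0.97 (adjusted p of 0.00148), and the membrane protease ADAM9 with one of -0.70 (adjusted p of 0.000608). The proprotein convertase FURIN, which matures the IGF1R precursor, rose with a log2 fold change of 0.47 (adjusted p of 0.000577). CTSD, a lysosomal protease that can cut IGFBPs, was on the list and is named after its values were seen. It fell with a log2 fold change of -0.52 (adjusted p of 0.00117, and 0.0508 without Control replicate 1).

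A further list held the adaptors that carry the signal from IGF1R and INSR together with brakes on that signal. Of 14 tested genes 2 rose, 3 fell and 9 did not pass, with a median log2 fold change of 0.01. The share that passed was 35.7%, near the 37.1% of all genes. Without siSIRT1 replicate 1 there were 5 rises and 3 falls. IRS1, the main docking protein of IGF1R, measured 17.66 and 16.91 FPKM in Control, against 15.22 and 18.59 FPKM in siSIRT1, with overlapping groups, a log2 difference of -0.04 and an adjusted p of 0.806 by limma. Its relative IRS2 fell from 4.31 and 4.34 FPKM to 1.82 and 2.33 FPKM (log2 fold change -0.80, adjusted p 0.00207). SHC1, the adaptor toward RAS, fell with a log2 fold change of -0.65 (adjusted p of 0.000104), and the feedback inhibitor SOCS3 with one of -0.43 (adjusted p of 0.00213). SH2B1, an adaptor that enhances insulin receptor signaling, rose with a log2 fold change of 0.47 (adjusted p of 0.00134). GRB2, which links receptors to SOS, rose with a log2 fold change of 0.30 (adjusted p of 0.00736), a call lost without Control replicate 1 (0.059) and without Control replicate 2 (0.0709).

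In the PI3K-AKT-mTOR branch below the receptors 5 of 25 genes rose, 3 fell and 17 did not pass, so that 32% passed, near the 37.1% of all genes. Without Control replicate 2 there were 3 rises and no fall there, without Control replicate 1 there were 2 rises and 2 falls, without siSIRT1 replicate 1 there were 5 rises and no fall, and without a filter on low values 3 rises and no fall. In the RAS-ERK branch 1 of 10 rose, 1 fell and 8 did not pass, which is 20%, and 3 rose and 1 fell under the replicate block. The median log2 fold change was 0.07 in the first branch and 0.10 in the second. The GTPase HRAS rose from 33.56 and 33.8 FPKM to 65.88 and 62.92 FPKM (log2 fold change 0.91, adjusted p 2.52e-05 by limma). The GSK3 kinase genes went opposite ways, GSK3A with a rise of 0.46 on the log2 scale (adjusted p of 0.00126) and GSK3B with a log2 fold change of -0.47 (adjusted p of 0.0258). AKT1 rose with a log2 fold change of 0.39 (adjusted p of 0.00211). PDPK1, the kinase that activates AKT, had a log2 fold change of -0.43 (adjusted p of 0.0213), and RPS6KB1, the S6 kinase, one of -0.35 (adjusted p of 0.0426). The calls of GSK3B, PDPK1 and RPS6KB1 were lost without siSIRT1 replicate 1, at adjusted p of 0.11, 0.0817 and 0.0978, and without Control replicate 2, at 0.179, 0.148 and 0.145. Without Control replicate 1 that of RPS6KB1 was lost too, at 0.235. Without a filter on low values these 3 calls were lost as well, at 0.102 for GSK3B, 0.0825 for PDPK1 and 0.0775 for RPS6KB1.

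The mannose 6-phosphate sorting genes, which work with IGF2R in carrying lysosomal enzymes, counted 7 rises, no fall and 6 genes that did not pass among 13 tested, with a median log2 fold change of 0.18, beside 24.0% of all genes that were higher and 13.1% that were lower. The absence of falls depended on the setting. There were 6 rises and 3 falls after median-of-ratios scaling and 6 rises and 2 falls after quantile normalization or scaling to equal FPKM sums, the falls being those of the adaptor subunit AP1G1 and the phosphotransferase subunit GNPTG, joined in the first case by GNPTAB, the catalytic chain of that enzyme. Under the replicate block 7 rose and 2 fell. Without Control replicate 1 there were 3 rises and without Control replicate 2 there were 4, with no fall in either, while 7 rose and 1 fell without siSIRT1 replicate 1 and 6 rose and 2 fell without siSIRT1 replicate 2. AP1G1, GNPTG and GNPTAB were named after their values were seen, and their log2 differences of -0.25, -0.23 and -0.26 did not pass in the fit without further scaling. SORT1, the sorting receptor sortilin, rose from 9.02 and 8.33 FPKM to 13.64 and 15.11 FPKM (log2 fold change 0.67, adjusted p 0.000968 by limma). AP1M1, a subunit of the clathrin adaptor, rose with a log2 fold change of 0.43 (adjusted p of 0.00145), and VPS29, a subunit of retromer, with one of 0.39 (adjusted p of 0.00312). M6PR, the smaller mannose 6-phosphate receptor, measured 51.7 and 52.44 FPKM in Control, against 57.62 and 60.95 FPKM in siSIRT1. Its log2 fold change of 0.18 had an adjusted p of 0.0453, which was lost without Control replicate 1 (0.272), without Control replicate 2 (0.222), without siSIRT1 replicate 2 (0.0894), without a filter on low values (0.0648) and under each other scaling (0.182 to 0.27). IGF2R lay on the other side, at -0.16 on the log2 scale, and did not pass.

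Of the 2 tested genes on the list of the IGF2 locus and its regulators, 1 fell and 1 did not pass. Over all genes tested, 24.0% were higher and 13.1% lower. CDKN1C, an imprinted cell cycle inhibitor that lies on the same chromosome arm as IGF2, fell from 7.35 and 7.36 FPKM to 2.91 and 2.07 FPKM (log2 fold change -1.27, adjusted p 0.000281 by limma). CTCF, the insulator protein of the IGF2 and H19 locus, which was named after its values were seen, measured 13.47 and 13.18 FPKM in Control, against 13.33 and 11.82 FPKM in siSIRT1, with overlapping groups. The oncofetal RNA-binding list holds partners and bound mRNAs of the IGF2BP proteins. Of its 7 tested genes 2 rose, IGF2BP1 being counted here again, 2 fell and 3 did not pass, with a median log2 fold change of -0.12. Here too, 24.0% of all genes were higher and 13.1% lower. CD44, a hyaluronan receptor whose mRNA the IGF2BPs bind, fell from 433.51 and 433.22 FPKM to 224.52 and 246.63 FPKM (log2 fold change -0.88, adjusted p 4.22e-05). ACTB, the actin mRNA bound by IGF2BP1, had a log2 fold change of 0.36 (adjusted p of 0.0148) and the chromatin protein HMGA2 one of -0.25 (adjusted p of 0.0377). Both calls were lost without Control replicate 1 (0.385 and 0.136), without Control replicate 2 (0.384 and 0.199) and without a filter on low values (0.0919 and 0.0931). That of HMGA2 was also lost without siSIRT1 replicate 1 (0.11), and that of ACTB after quantile normalization (0.196) and median-of-ratios scaling (0.136).

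**Figure D4:**
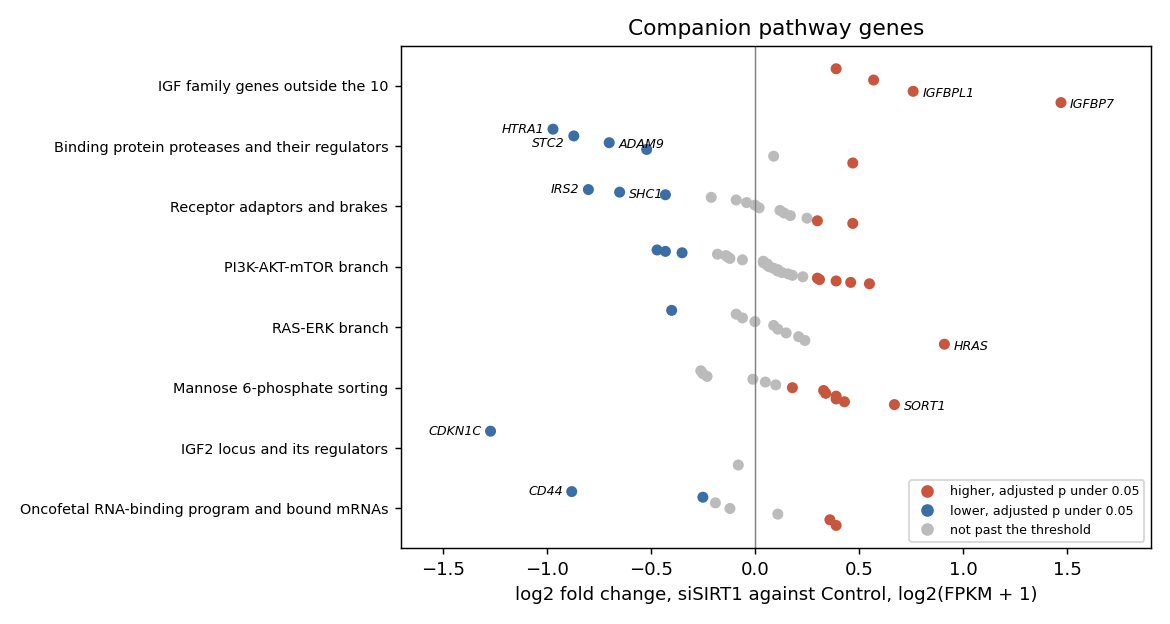
Log2 fold change of each of the 80 tested companion genes, on the log2(FPKM + 1) scale as siSIRT1 against Control, by list, with red for higher and blue for lower genes past an adjusted p of 0.05 and grey for the rest, IGF2BP1 being drawn in both of its lists. All 4 IGF family genes and no grey point stand in the top row, IGFBP7 lies farthest right at 1.47 and CDKN1C farthest left at -1.27.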

How the data were processed

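Total RNA of the 4 PANC-1 libraries was sequenced, and the authors deposited 1 table per library of FPKM values, rounded to 2 decimals, for 16878 genes with Entrez identifiers. The submitters' processing notes name HISAT, Bowtie2, RSEM and ChIPseeker. The genome build, annotation, filters and use of strand are not given in the sources used here, nor is how reads shared by near-identical copies were divided. FPKM is relative to the library total, so abundant genes that change can shift all others. Identifiers were matched to RefSeq symbols for 16846 genes.

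The 10 genes and the companion lists were chosen with earlier results of these data known. Values were taken to log2(FPKM + 1), and the 12191 genes whose mean reached 1 FPKM were fitted across all genes with limma 3.58.1 (R 4.3.3; lmFit, eBayes with a trend, two-sided, Benjamini-Hochberg, threshold 0.05), without a block. The method was tested on simulated data. The text names the 10 genes, SIRT1, the other IGF family genes, the 3 largest rises and falls among the called genes of each companion list, IRS1, IRS2, PAPPA, H19 and M6PR, and the 3 genes nearest in profile to IGF2 and IGFBP4. Some genes that this rule names are not reported here. Transcript lengths and 3′ UTRs came from canonical GENCODE transcripts mapped to GRCh37, and promoters from RefSeq GRCh38.p14. Depth was estimated from 1-read steps in 91 to 119 single-exon genes per library, and that step pattern was weak (scores of 0.44 to 0.535, against at most 0.376 for jittered values). Alternatives were a pseudocount of 0.1, no filter, quantile normalization, median-of-ratios scaling, equal FPKM sums, the replicate block and leaving out each library. Tables and plots were made with Python 3.11.15, pandas 2.3.3, numpy 2.4.6 and matplotlib 3.10.9.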

Additional observations from a re-analysis of the deposited data

How the results depend on the processing

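No tested gene among the 10 changed direction under any alternative, and 6 of the 9 differences were negative in every setting. IGF2, IGF1R, IGFBP3, IGFBP4, IGFBP6 and IGF2BP3 stayed past the threshold in every alternative. Across all genes, 4493 passed with a pseudocount of 0.1, 3531 without a filter, 4275 after quantile normalization, 4073 after median-of-ratios scaling and 4144 after scaling to equal FPKM sums, which was chosen after seeing the data. Leaving out 1 library gave 2691 to 4608 genes, against 4521, and 22 to 36 companion genes, against 35. In those fits the lone library of a group is assumed to vary like the other group. Under the replicate block 5393 genes passed and 3 of the 10 lay higher and 5 lower, as without the block, while SIRT1 stayed at -1.96. The deviations of same-numbered libraries correlated at 0.123 across genes, and the labels state no shared batch or day, so the libraries share only a number. Computed from estimated fragments in place of FPKM, the IGFBP shares were 28.8% in Control and 34% in siSIRT1 for IGFBP2, 2.21% and 19.7% for IGFBP3, 68.1% and 42.6% for IGFBP4, and 0.887% and 3.57% for IGFBP6, because fragments are not divided by transcript length, and the order of IGFBP2 and IGFBP4 in siSIRT1 reversed. With 2 libraries per group, small differences such as those of IGF2R and IGF2BP2 lie near what the spread can resolve, and depth limits INSR, IGF1 and PAPPA.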
